A study of Rattus norvegicus with 6 samples.

Results

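Described here are 5 secreted signals of acute inflammation in injured rat facial nerve: the cytokine genes Il1b (ENSRNOG00000004649) and Il6 (ENSRNOG00000010278), the CC chemokine genes Ccl2 (ENSRNOG00000007159) and Ccl3 (ENSRNOG00000011205), and the CXC chemokine gene Cxcl1 (ENSRNOG00000002802). They were picked by Ensembl gene ID, with earlier results of these data known but by a rule that uses no measured value, and are 5 of the 30562 IDs in the count table. The deposited files give IDs without symbols, so the symbols are those given with the choice of IDs. Poly(A)-enriched RNA of facial nerve tissue from wild-type rats was sequenced in 6 libraries, all taken on day 14 after injury. In 3 of them, called FNI, the nerve was injured and not given the gel. In the other 3, called C-Gel-light, the injured nerve was given a treatment that the series title links to a hydrogel of Chlorella, a green alga that makes oxygen in light. The comparison is thus between treated and untreated injured nerve. Nerve without injury, the gel in the dark and light without the gel were not analysed here. The rats' strain, age and sex, the kind of injury and any pooling of animals are not given in the labels. The labels also leave unsaid whether the 3 libraries of each group are 3 rats, so every p-value here is set by library-to-library spread, part or all of which may be technical.

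After a peripheral nerve is injured, Schwann cells beyond the injury and the macrophages that enter the nerve release cytokines and chemokines while axons and myelin are cleared. Interleukin-1 beta and interleukin-6 act on receptors of many cell types, and the chemokines draw leukocytes out of the blood: CCL2 mainly monocytes through CCR2, CCL3 monocytes and lymphocytes, and CXCL1 neutrophils through CXCR2. In models of nerve injury, transcripts of this group are known as early signals that peak soon after damage and decline as the debris is removed. Many of these genes are induced by the transcription factor NF-kappaB, which binds kappaB sites near their start sites.

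The sequence just before the start site is shown for Il1b, Il6 and Cxcl1, the members for which it was at hand, as the stretch where such factors can bind. Each is the 250 bases upstream of the RefSeq start site in the rat build GRCr8, on the strand of the gene. This is not the build named in the submitters' processing notes. RefSeq promoters were at hand for 3 of the 5 genes, and those of Ccl2 and Ccl3 are not shown. Capitals mark matches, on either strand, to the kappaB consensus, the AP-1 motif TGANTCA, the cAMP response element TGACGTCA, the C/EBP motif TTNNGCAA and the TATA box TATAAA.
Il1b, chr3:137036582-137036831, minus strand: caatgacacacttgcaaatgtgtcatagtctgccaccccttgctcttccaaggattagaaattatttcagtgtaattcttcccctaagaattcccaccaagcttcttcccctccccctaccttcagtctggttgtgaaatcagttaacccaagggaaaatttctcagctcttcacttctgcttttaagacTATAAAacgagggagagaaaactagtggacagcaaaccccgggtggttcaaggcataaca
Il6, chr4:5894576-5894825, minus strand: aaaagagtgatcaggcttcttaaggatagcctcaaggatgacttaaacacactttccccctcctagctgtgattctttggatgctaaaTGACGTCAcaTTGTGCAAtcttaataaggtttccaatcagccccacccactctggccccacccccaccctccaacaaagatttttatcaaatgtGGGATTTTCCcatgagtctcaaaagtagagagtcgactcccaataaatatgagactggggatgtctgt
Cxcl1, chr14:17479322-17479571, minus strand: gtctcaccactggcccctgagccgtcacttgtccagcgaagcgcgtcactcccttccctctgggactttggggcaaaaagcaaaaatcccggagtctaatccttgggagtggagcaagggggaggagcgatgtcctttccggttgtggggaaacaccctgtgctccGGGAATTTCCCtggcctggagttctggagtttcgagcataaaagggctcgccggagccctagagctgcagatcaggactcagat
In Il6 the kappaB match lay at -68 to -59 from the start site, the cAMP response element at -162 to -155 and the C/EBP match at -152 to -145. In Cxcl1, kappaB matches on the 2 strands overlapped, at -84 to -75 and -83 to -74, and make up a single run of capitals. In Il1b the only match was a TATA box at -60 to -55. A kappaB match was found in 6.33% of the 33469 RefSeq promoters of this length, a cAMP response element in 1.59%, a C/EBP match in 9.22%, a TATA box in 12.9% and an AP-1 match, found in none of these 3, in 6.34%. These are matches of letters only, and binding was not measured. In the order of RefSeq coding genes, Il1b lay beside Il1a, Ccl2 beside Ccl7, Ccl3 between Ccl6 and Ccl4, and Cxcl1 beside Cxcl2. Another gene, LOC103693406, overlapped Ccl3 in that annotation. Whether the counting used strand is not given in the sources used here, so reads of LOC103693406 could be part of the Ccl3 counts.

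Total counts ran from 22957382 to 28997855 per library, and 15581 genes passed the filter on low counts, all 5 members among them. Within a group no pair of libraries was alike within counting noise. On the first principal component of log2 CPM (each count relative to its library total, with totals scaled by the TMM method), the C-Gel-light libraries lay on one side and the FNI libraries on the other (57.5% of the variance). C-Gel-light replicate 3 was not the library that stood apart on the second component (12.4%), where replicate 2 lay at 40.4 and the others between -25.0 and 12.7. No batch label was shared by any 2 libraries, and the labels do not say whether it marks a processing batch or only the sample. If it marks a batch, batch and group cannot be told apart.

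By the main test none of the 5 genes differed between treated and untreated nerve beyond the spread between libraries. By the quasi-likelihood test of edgeR, 0 of 5 passed an adjusted p under 0.05, where 14.8% of all tested genes did (7.07% higher and 7.7% lower with C-Gel-light). At an unadjusted p under 0.05 it was 1 of 5, Ccl3, against 32.4% of all tested genes. The fitted fold change was above 1 for Il1b, Il6, Ccl2 and Cxcl1 and below 1 for Ccl3. The median log2 fold change of the members was 1.02 and that of all tested genes -0.01. DESeq2 called 3 of 5, Il1b and Cxcl1 higher and Ccl3 lower, where it called 23.2% of all genes. With limma-voom 0 of 5 were called, where it called 14.5% of all tested genes. At an unadjusted p under 0.05 limma-voom had 0 of 5, against 32.8% of all tested genes. In bulk tissue, fewer cells that make a transcript and less of it per cell cannot be told apart. Markers of leukocytes and of nerve cells were not analysed here, so the tissue label was not checked against them and their part in these levels was not tested.

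**Figure D1:**
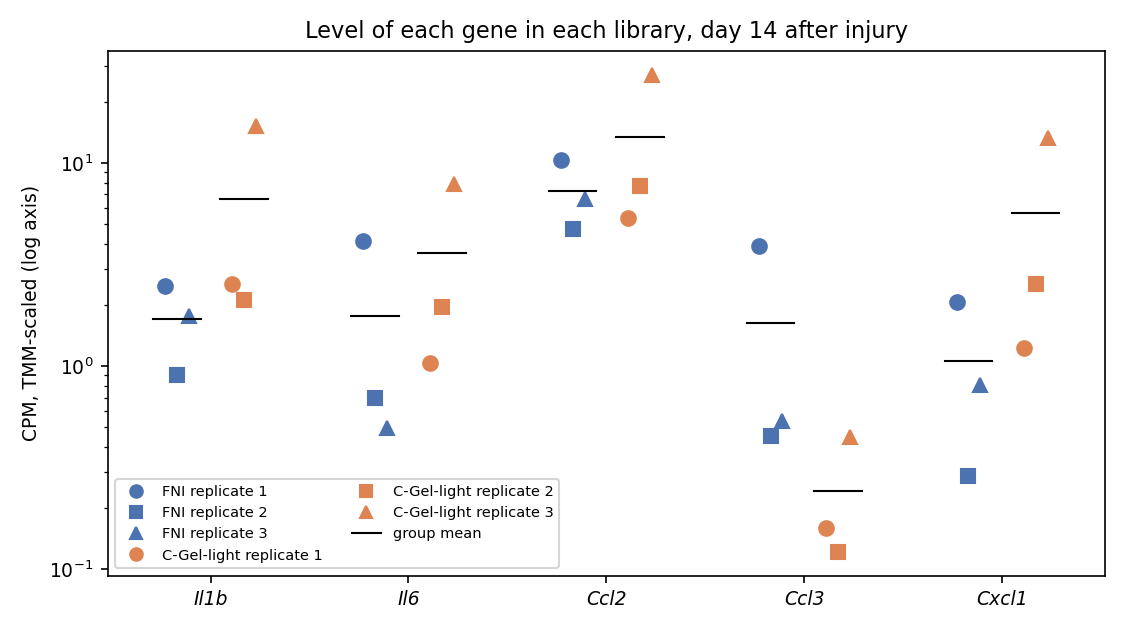
CPM of each gene (TMM-scaled, log axis) in the 3 FNI libraries (blue) and the 3 C-Gel-light libraries (orange), with a symbol for each replicate number and a black line at each group mean. C-Gel-light replicate 3 was the highest treated library and FNI replicate 1 the highest untreated library for all 5 genes, as for 11.4% of all tested genes. In 4 of the 5 the groups overlapped. Of all tested genes, 39.1% did not overlap between the groups.

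Il1b encodes interleukin-1 beta, a cytokine made as an inactive precursor that inflammasomes activate through caspase-1. The treated libraries held 64 (replicate 1), 52 (replicate 2) and 374 counts (replicate 3), or 2.55, 2.11 and 15.2 CPM. The untreated ones held 69, 22 and 46 counts in the same order, or 2.47, 0.901 and 1.76 CPM. C-Gel-light replicates 1 and 2 lay on either side of FNI replicate 1, while replicate 3 alone stood far above all other libraries, and the groups overlapped. The mean was 6.62 ± 7.43 CPM with C-Gel-light and 1.71 ± 0.784 CPM in FNI (SD, n = 3). The fold change was 3.85 (95% interval 0.984 to 15.1), or 1.94 on the log2 scale (SE 0.83, adjusted p = 0.16 by edgeR). Without C-Gel-light replicate 3 the log2 fold change was 0.45.

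Il6 encodes interleukin-6, a cytokine that signals through a receptor chain shared with leukaemia inhibitory factor and ciliary neurotrophic factor. From replicate 1 to 3, the treated libraries gave 26, 48 and 193 counts, which is 1.03, 1.95 and 7.84 CPM. The untreated ones gave 115, 17 and 13, which is 4.11, 0.696 and 0.497 CPM. Here a single library was high on each side: FNI replicate 1 exceeded C-Gel-light replicates 1 and 2, and C-Gel-light replicate 3 exceeded all. Mean levels were 3.61 ± 3.69 CPM and 1.77 ± 2.03 CPM (SD, n = 3), with a fold change of 2.02 (95% interval 0.391 to 10.5), that is 1.02 as log2 (SE 1.00, adjusted p = 0.52 by edgeR). Without C-Gel-light replicate 3 the sign turned, at a log2 fold change of -0.24. It did not turn with FNI replicate 1 left out as well (1.33, a fit added after seeing the values). Without FNI replicate 1 alone the log2 fold change was 2.59. It was 0.64 and 0.58 without FNI replicates 2 and 3.

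Ccl2 encodes the monocyte chemoattractant protein also called MCP-1 and was the most abundant of the 5 genes in every library. It reached 135, 189 and 669 counts with C-Gel-light, or 5.37, 7.68 and 27.2 CPM in replicates 1 to 3. FNI replicates 1 to 3 had 290, 116 and 174 counts, or 10.4, 4.75 and 6.65 CPM. FNI replicate 1 again lay above C-Gel-light replicates 1 and 2, and the range of those 2 fell inside that of the FNI libraries. With means of 13.4 ± 11.98 CPM and 7.25 ± 2.86 CPM (SD, n = 3), the fold change was 1.84 (95% interval 0.661 to 5.14) and its log2 value 0.88 (SE 0.62, adjusted p = 0.37 by edgeR). Without C-Gel-light replicate 3 the log2 fold change was -0.14.

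Cxcl1 encodes a neutrophil attractant also known in the rat as CINC-1. It was found with 31, 62 and 328 counts in treated replicates 1 to 3, which is 1.23, 2.52 and 13.3 CPM. In untreated replicates 1 to 3 it was found with 58, 7 and 21, which is 2.07, 0.287 and 0.803 CPM. C-Gel-light replicate 1 lay below FNI replicate 1, so the groups overlapped, and only 2 of the 3 FNI libraries reached the level the filter asks for. The means were 5.69 ± 6.64 CPM and 1.05 ± 0.919 CPM (SD, n = 3). This was the largest fitted fold change above 1, at 5.33 (95% interval 0.989 to 28.7), or 2.41 on the log2 scale (SE 1.02, adjusted p = 0.16 by edgeR). Without C-Gel-light replicate 3 it was 0.83 on the log2 scale.

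Ccl3 encodes macrophage inflammatory protein 1 alpha, a chemokine made by activated macrophages and other leukocytes, and its values ran the other way. Treated replicates 1 to 3 had 4, 3 and 11 counts, and untreated replicates 1 to 3 had 109, 11 and 14. These are 0.159, 0.122 and 0.447 CPM against 3.90, 0.450 and 0.535 CPM. Every FNI library thus lay above every C-Gel-light library, as was so in one direction or the other for 39.1% of all tested genes, with p = 0.1 in a two-sided exact permutation test, the lowest value this design can give (0.33 adjusted over the 5 genes). The gap was within counting error: the highest C-Gel-light library and the lowest FNI library both had 11 counts (95% exact Poisson interval 5.49 to 19.7, counting error only). Ccl3 passed the filter on low counts through all 3 FNI libraries and 1 C-Gel-light library. The mean was 0.243 ± 0.178 CPM with C-Gel-light and 1.63 ± 1.96 CPM in FNI (SD, n = 3), and the fitted level was 6.64-fold lower with treatment, or -2.73 on the log2 scale (SE 1.01, 95% interval -5.12 to -0.34, unadjusted p = 0.031, adjusted p = 0.11 by edgeR). FNI replicate 1 held 81.3% of the 134 FNI counts, and without it the log2 fold change was -1.01.

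**Figure D2:**
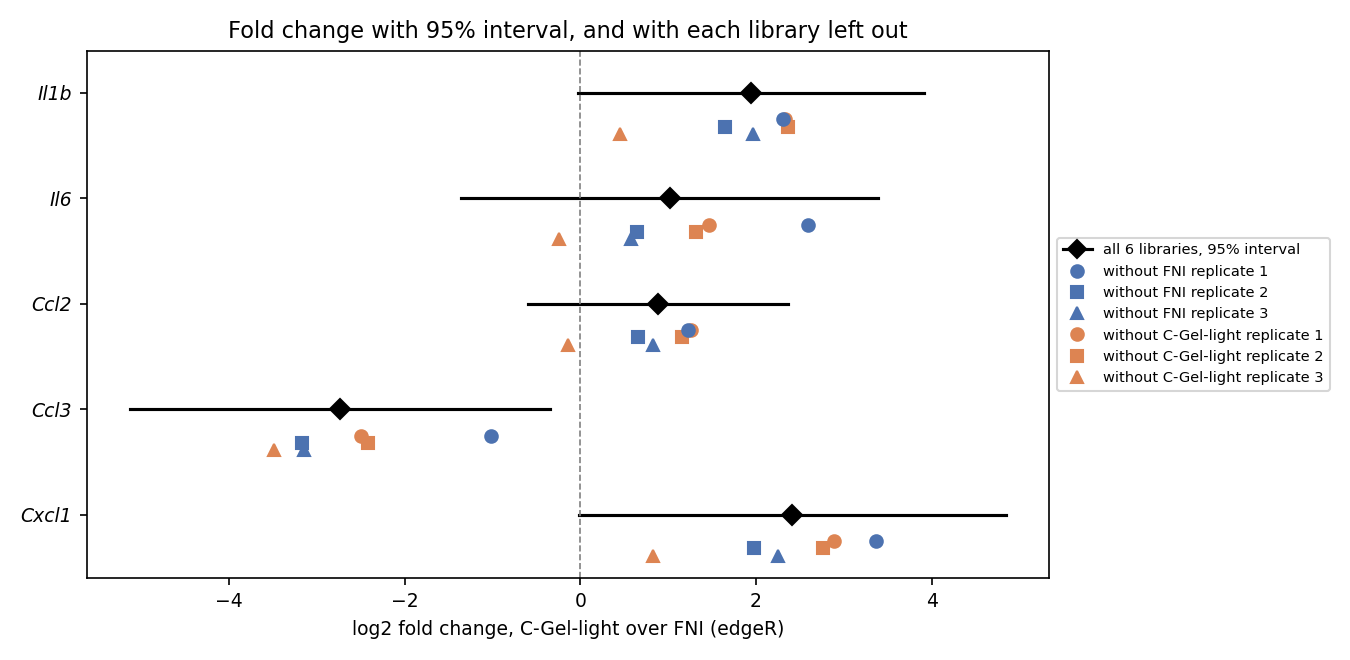
Fitted log2 fold change of each gene, C-Gel-light over FNI (black diamonds, with 95% intervals), and below each the value with 1 library left out (blue, FNI; orange, C-Gel-light; symbols as replicate numbers). The intervals of Il1b, Il6, Ccl2 and Cxcl1 include 0, and leaving out C-Gel-light replicate 3 moved these 4 values down, to -0.24 for Il6 and -0.14 for Ccl2.

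The spread within each group was the main feature of these genes, and it fell on the same libraries. C-Gel-light replicate 3 was the highest treated library for 5 of 5 members, as it was for 32.6% of all tested genes, and FNI replicate 1 the highest untreated library for 5 of 5, as for 30.5% of all genes. Both held together for 11.4% of all tested genes. Replicate 3 exceeded the mean CPM of the other C-Gel-light libraries 7.10-fold for Cxcl1, 6.52-fold for Il1b, 5.25-fold for Il6, 4.16-fold for Ccl2 and 3.18-fold for Ccl3. An excess of at least 4-fold in that library was found for 0.751% of all tested genes. It held 77.9% of the C-Gel-light counts of Cxcl1, 76.3% of those of Il1b, 72.3% of Il6, 67.4% of Ccl2 and 61.1% of Ccl3.

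In FNI the order of the genes differed. Replicate 1 exceeded the mean of the other FNI libraries 7.90-fold for Ccl3 and 6.89-fold for Il6, but 3.81-fold for Cxcl1, 1.85-fold for Il1b and 1.82-fold for Ccl2. An excess of at least 2-fold in that library was found for 3.08% of all tested genes. Among the 5 genes, the excess in FNI replicate 1 was largest for Ccl3, which was the least raised in C-Gel-light replicate 3. The C-Gel-light counts of Ccl3 were only 4, 3 and 11 in replicates 1 to 3, with overlapping 95% exact Poisson intervals. The SD of log2 CPM within C-Gel-light was 1.72 for Cxcl1, 1.55 for Il1b, 1.45 for Il6, 1.22 for Ccl2 and 0.74 for Ccl3, where the median of all tested genes was 0.21. Within FNI it was 1.62 for Ccl3, 1.54 for Il6, 1.28 for Cxcl1, 0.70 for Il1b and 0.56 for Ccl2, with a median of 0.17 over all genes. All 5 members lay below the median abundance, and the part of low counts in their spread was not tested: from 3.4% of tested genes for Ccl3 to 34.6% for Ccl2 had a lower mean log2 CPM. With both libraries left out, an alternative added after seeing the values, the log2 fold changes were 0.81 for Il1b, 1.33 for Il6, 0.20 for Ccl2, 1.78 for Cxcl1 and -1.77 for Ccl3, and 0 of 5 passed the test of edgeR, which then called 1.76% of all genes.

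**Figure D3:**
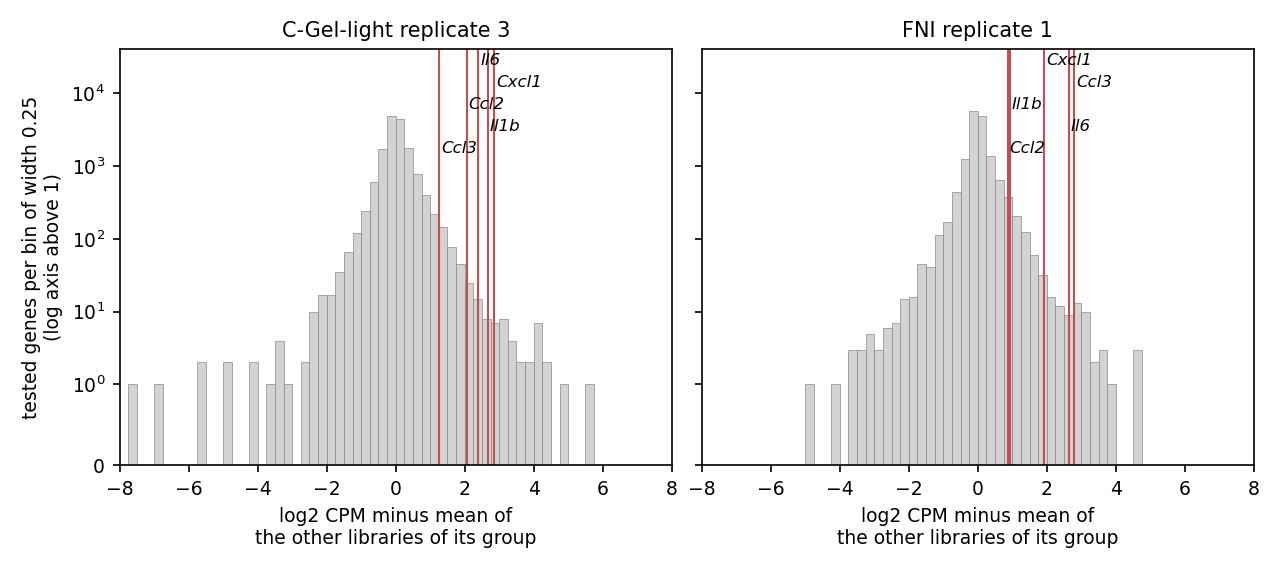
Log2 CPM of all 15581 tested genes in C-Gel-light replicate 3 (left) and FNI replicate 1 (right), each minus the mean of the other libraries of its group, as counts per bin of width 0.25 (log axis above 1). Red lines mark the 5 genes, which all lie to the right of 0: at 1.27 (Ccl3) to 2.86 (Cxcl1) on the left and at 0.87 (Ccl2) to 2.80 (Ccl3) on the right.

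Levels of different genes can be set side by side only per length, in FPKM, which divides fragments by gene length and by library total. In every library Ccl2 was the highest of the 5, at 5.94, 8.85 and 34.1 FPKM in treated replicates 1 to 3 and 14.3, 6.38 and 9.67 FPKM in FNI. Below it the order was not the same in the groups. Ccl3 was the lowest of the 5 in each C-Gel-light library (0.183, 0.146 and 0.582 FPKM). In FNI replicates 1 and 2 it came next after Ccl2 (5.59 and 0.629 FPKM), and in replicate 3 it was above Il6 only (0.809 FPKM). In FNI replicate 2 this order rested on low counts, as 11 for Ccl3 and 22 for Il1b. Median levels in FNI were 9.67 FPKM for Ccl2, 1.07 for Il1b, 0.911 for Cxcl1, 0.809 for Ccl3 and 0.299 for Il6. The range of each of the last 4 overlapped those of the other 3. With C-Gel-light they were 8.85 FPKM for Ccl2, 2.27 for Cxcl1, 1.18 for Il1b, 0.720 for Il6 and 0.183 for Ccl3. The ranges of Il1b, Il6 and Cxcl1 overlapped there, and so did those of Il6 and Ccl3. Those of Il1b and Cxcl1 also reached into that of Ccl2, though Ccl2 was higher within each library.

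Ratios between genes within a library do not depend on how libraries are scaled. Of the 10 ratios between the 5 genes, 6 did not overlap between the groups, and 4 of these 6 were the ratios with Ccl3. From replicate 1 to 3, Ccl2 exceeded Ccl3 32.5-, 60.6- and 58.5-fold with C-Gel-light but 2.56-, 10.1- and 11.95-fold in FNI. Relative to the other CC chemokine, Ccl3 was thus 7.18-fold lower with treatment by geometric means, and 4.42-fold lower without FNI replicate 1. The ratio of Il1b to Ccl3 was 6.46, 6.996 and 13.7 with C-Gel-light and 0.256, 0.807 and 1.33 in FNI, so Il1b exceeded Ccl3 in all 3 treated libraries and in 1 of the 3 untreated ones. The ratio of Il6 to Ccl3 was 2.00, 4.93 and 5.40 against 0.325, 0.476 and 0.286. Ccl3 was 0.172, 0.0644 and 0.0447 of Cxcl1 against 2.50, 2.09 and 0.888, a 21.1-fold difference by geometric means and the largest of the 10.

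The 4 ratios share the low Ccl3 counts of the treated libraries and of FNI replicates 2 and 3 (11 and 14 counts). The remaining ones that did not overlap were Il1b to Ccl2, at 0.199, 0.115 and 0.235 against 0.0999, 0.0796 and 0.111, and Ccl2 to Cxcl1, at 5.58, 3.90 and 2.61 against 6.40, 21.2 and 10.6. The lowest treated value of Il1b to Ccl2 and the highest untreated one nearly met. Each of the 6 had a two-sided exact permutation p of 0.1, the smallest possible, and 0.17 after Benjamini-Hochberg adjustment over the 10. As background, the ratio of Ccl3 to each of 15478 other tested genes with a count in every library did not overlap between the groups for 47% of them. That share was 27% for Il1b, 10.7% for Cxcl1, 6.47% for Ccl2 and 2.02% for Il6.

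**Figure D4:**
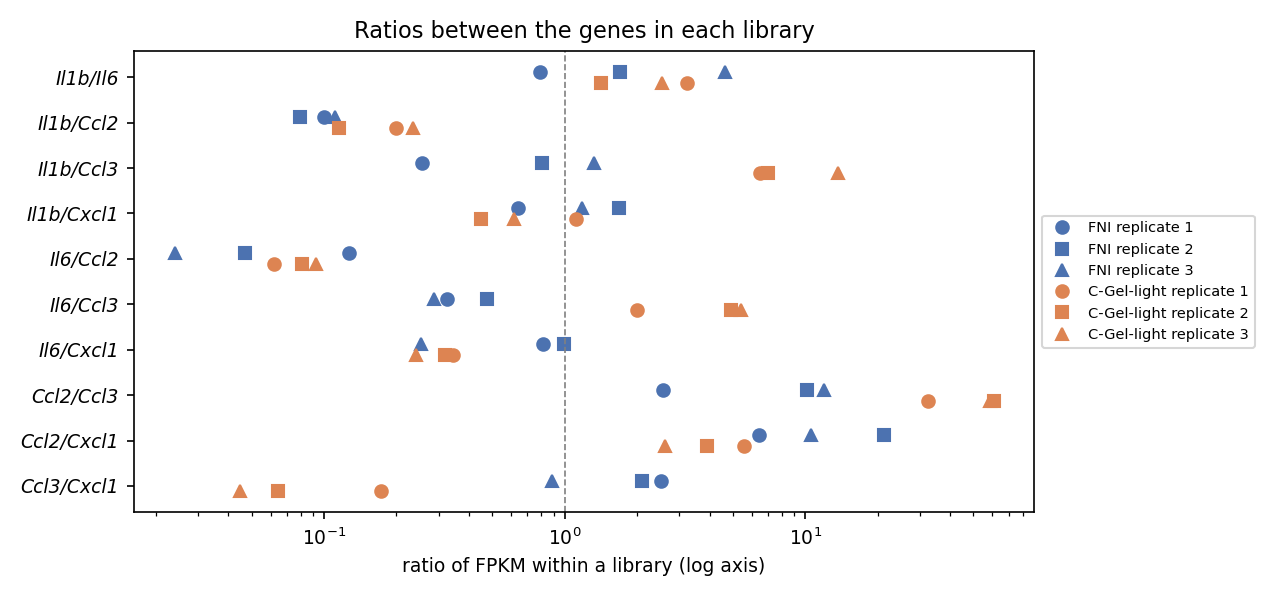
Ratio of FPKM for each pair of the 5 genes within each library (log axis, dashed line at 1; blue, FNI; orange, C-Gel-light; symbols as replicate numbers). In the 4 ratios with Ccl3 the libraries of the groups lie apart, as Ccl2 to Ccl3 at 32.5 or more with C-Gel-light and 11.95 or less in FNI.

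The gene IDs whose log2 CPM followed the mean pattern of the 5 genes most closely over the 6 libraries, among 10371 other genes of higher abundance (mean log2 CPM 3 or more), were ENSRNOG00000049517 and ENSRNOG00000014524, with a Pearson correlation of 0.99 each. The first had 17.9, 19.3 and 37.7 CPM in treated replicates 1 to 3 and 27.7, 15.4 and 16.1 CPM in untreated ones. The other, ENSRNOG00000014524, had 59.2, 64.7 and 81.4 CPM and 70.6, 58.2 and 59.4 CPM. Both were picked as the highest of many correlations over only 6 points, which is a description and no test. That both, like the members, were highest in C-Gel-light replicate 3 and FNI replicate 1 follows from this choice and is no separate result. Neither passed the test between the groups (adjusted p = 0.55 and 0.58 by edgeR).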

How the data were processed

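RNA of 6 libraries was compared, 3 per group, with groups from the treatment labels and replicate numbers from the titles. Unnormalized counts by Ensembl ID and FPKM values were deposited. The deposited FPKM was the count divided by library total and gene length. The build mRatBN7.2 and the tools STAR (2.4.2a), RSEM (1.2.29), FastQC (0.11.9), fastp (0.22.0) and edgeR (3.28.1) are named, without their roles, per the submitters' processing notes. If RSEM made the counts, they are rounded estimates.

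For the main test, edgeR 4.0.16 (R 4.3.3) fitted group alone to all genes that passed filterByExpr (minimum count 10), by quasi-likelihood with TMM scaling and robust dispersion, and p-values were adjusted by Benjamini-Hochberg over 15581 genes. The standard error was the log2 fold change divided by the square root of F. Log2 CPM used a prior count of 2. The tests were tried on simulated counts drawn with the same dispersion for every library of a gene. How they behave when a single library stands far above the others was not tested. Whether replicate numbers pair the libraries is not stated. Deviations from the group mean correlated at -0.06, 0.03 and 0.09 between libraries of the same number, which cannot exclude a pairing. Chi-square per degree of freedom between libraries of a group was 27.0 to 175.1.

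The members, lists and rules were chosen with earlier results of these data known. The named genes were the 5 members and the 2 IDs most correlated with their mean z-score. The RefSeq table held 0 Ensembl IDs, so lists of related cytokines, chemokines, receptors and cell type markers were not analysed here. Alternatives were DESeq2 1.42.0, limma-voom (limma 3.58.1), other scalings and filters, FPKM, a replicate block and leaving out libraries.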

Additional observations from a re-analysis of the deposited data

How the results depend on the processing

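The calls rested on the tool in 1 case: DESeq2 called 2 members higher, Il1b (log2 fold change 1.96, adjusted p = 0.037) and Cxcl1 (2.44, adjusted p = 0.030), and 1 lower, Ccl3 (-2.74, adjusted p = 0.030), against 0 and 0 by edgeR. Of all tested genes, DESeq2 called 23.2% and edgeR 14.8%. Over all alternatives the adjusted p ran from 0.037 to 0.55 for Il1b, from 0.030 to 0.52 for Cxcl1 and from 0.030 to 0.40 for Ccl3. It ran from 0.16 to 0.89 for Il6 and from 0.21 to 0.82 for Ccl2. No other alternative called a member at an adjusted p under 0.05. Their shares of all tested genes called ran from 1.76% (without C-Gel-light replicate 3 and FNI replicate 1) to 25.3% (library totals). The main edgeR fit also called 0 members at an adjusted p under 0.1, where 24.9% of all tested genes passed. Ccl3 was under 0.1 in some alternatives: adjusted p = 0.067 by edgeR with library totals, 0.084 by edgeR without FNI replicate 2 and 0.082 by limma on log2(FPKM + 0.1). With any 1 library left out, and so fewer samples, there were log2 fold changes of 0.45 to 2.37 for Il1b, -0.24 to 2.59 for Il6, -0.14 to 1.27 for Ccl2, -3.48 to -1.01 for Ccl3 and 0.83 to 3.36 for Cxcl1. The signs of Il6 and Ccl2 turned in 1 fit each, that without C-Gel-light replicate 3. With the replicate number as a block the values were 1.47 for Il1b, 1.15 for Il6, 0.61 for Ccl2, -2.22 for Ccl3 and 2.16 for Cxcl1. That fit called 0 members and 12.8% of all tested genes. Library totals in place of TMM factors turned no sign. The cause of the differences between tools was not tested. Depth limits Ccl3 most, with 18 counts in all 3 C-Gel-light libraries together.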
